A study of Oryctolagus cuniculus with 6 samples.

Results

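Genes of the inflammasome and of pyroptosis were examined in primary limbal stem cells (LSCs), the cells at the rim of the cornea that renew its epithelium. The set of 9 genes was given by name and not by any measured value: the sensors NLRP1 and NLRP3, the adaptor PYCARD, the inflammatory caspases CASP1 and CASP4, the gasdermins GSDMD and GSDME, and the NLRP3 partners NEK7 and TXNIP. Rows under these symbols were found for 5 of the 9 among 22190 genes, namely CASP1, GSDMD, GSDME, NEK7 and TXNIP (NCBI gene identifiers 100101588, 100338635, 100351833, 100338171 and 100355951). All 5 passed the filter on low counts, which left 15029 genes to test. NLRP1, NLRP3, PYCARD and CASP4 were not analysed here under their symbols.

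RNA-seq was performed on cultured primary LSCs of the rabbit limbus, and each group, fresh or preconditioned, had 3 libraries. In the fresh group the limbus was cultured without storage, whereas in the preconditioned group the cornea was first kept for 7 days in liquid nitrogen in a medium holding the inflammatory cytokine IL-1β at 10 ng/mL. The cold and the cytokine acted at the same time and cannot be told apart. The sources used here do not say which animal each library came from, so that p values measure the spread between libraries, which may be technical.

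An inflammasome is a protein complex in which a sensor such as NLRP3 gathers the adaptor ASC, the product of PYCARD, and through it activates caspase-1. Caspase-1 matures the cytokines IL-1β and IL-18 and cuts gasdermin D, whose released part forms pores in the cell membrane. The lytic death that follows is called pyroptosis. Gasdermin E is another pore-forming protein of that family, NEK7 is a kinase that binds NLRP3 during assembly, and TXNIP, the inhibitor of thioredoxin, has been described to bind NLRP3 under oxidative stress. Caspases and gasdermins act as cut proteins, which mRNA levels do not show.

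Libraries held 31952352 to 34327534 counts on genes, and levels are given below as CPM, counts brought to a common library total after TMM scaling in edgeR (factors of 0.914 to 1.066). KRT5, the keratin of basal epithelial cells, was at 7337 to 11740 CPM in the 6 libraries. TP63, a transcription factor of limbal epithelium, was at 226 to 246 CPM in fresh and 112 to 183 CPM in preconditioned libraries (log2 fold change −0.77, adjusted p = 0.059). PAX6, another, was at 174 to 218 and 203 to 459 CPM (log2 fold change 0.81, adjusted p = 0.11). KRT12, KRT14 and ABCG2 of the 11 epithelial markers were not found under their symbols. The 10 markers of leukocytes and macrophages, immune cells in which inflammasome genes are known to be abundant, summed to 113 to 145 CPM in fresh and 130 to 376 CPM in preconditioned libraries. CD68 gave most of that sum, PTPRC, the pan-leukocyte marker, had 7 to 47 counts per library, and CD3E had at most 1. CD68 was at 93.4 to 129 CPM in fresh and 121 to 300 CPM in preconditioned libraries (log2 fold change 1.14, edgeR adjusted p = 0.085), and DESeq2 called it higher (adjusted p = 0.00951). All 9 tested leukocyte markers had a positive log2 fold change, none was called by edgeR and 1 had an unadjusted p under 0.05. Against the fresh mean, their log2 difference in CPM was 1.0 (CD14) to 2.87 (ITGAM) in preconditioned replicate 2. In preconditioned replicate 1 all but CD68 (0.17) were below the fresh mean, down to −3.06 (CD163). In preconditioned replicate 3 they lay on both sides of it, from −1.27 (CD14) to 1.43 (CD68). The part of leukocytes in the results below was not tested. The 10 markers of stromal fibroblasts summed to 529 to 1144 CPM in fresh and 1299 to 2323 CPM in preconditioned libraries. COL1A1, a collagen gene, made that separation, at 56.8 to 109 against 505 to 693 CPM (log2 fold change 2.66, adjusted p = 0.015, called higher), and without it the sums overlapped, at 472 to 1036 and 779 to 1630 CPM. In such bulk samples, fewer cells of a type and less RNA per cell cannot be told apart.

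The levels of the 5 genes differed widely in FPKM, the unit scaled for gene length and library total in which genes can be compared. TXNIP had the highest level, at 248 ± 71.0 FPKM in fresh and 177 ± 19.6 FPKM in preconditioned libraries (SD, n = 3 each). NEK7 followed at 36.1 ± 2.68 and 38.6 ± 2.57 FPKM. GSDMD was next at 9.01 ± 1.21 and 4.21 ± 2.84 FPKM, and GSDME at 4.64 ± 0.789 and 3.22 ± 0.738 FPKM. CASP1, the protease at the centre of the pathway, had the lowest level, at 0.503 ± 0.276 and 0.57 ± 0.341 FPKM. By mean level in the fresh group, TXNIP ranked 289 and CASP1 12538 among the 22190 genes. Neighbours in this order did not overlap in the fresh libraries, where GSDMD was at 7.7 to 10.1 FPKM and GSDME at 4.04 to 5.54 FPKM. In the preconditioned libraries GSDMD, at 1.86 to 7.37 FPKM, overlapped with GSDME, at 2.45 to 3.92 FPKM.

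**Figure D1:**
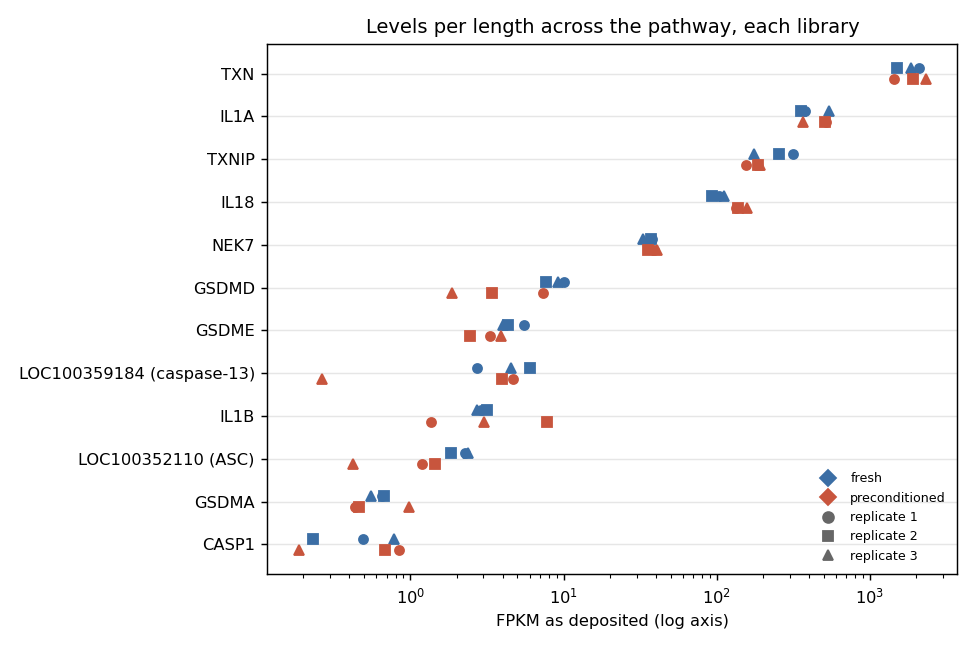
Level in FPKM (log axis) of the 5 inflammasome and pyroptosis genes found in the table, beside the ASC and caspase-13 genes, GSDMA, TXN, IL1A, IL1B and IL18; each point is 1 library, its colour gives the group and its shape the replicate number. TXNIP lies at 154 to 316 FPKM and CASP1 below 1 FPKM in every library.

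The comparison of the preconditioned with the fresh group asked whether mRNA of the inflammasome pathway differed in LSCs grown from stored, IL-1β-exposed tissue. None of the 5 genes passed the test, edgeR's quasi-likelihood test where a call needed a Benjamini-Hochberg adjusted p no higher than 0.05 and a log2 fold change of 1 or more in size. Among all tested genes 1.08% were called higher and 1.2% lower in the preconditioned group, and 5.08% had an adjusted p of at most 0.05 at any fold. DESeq2 likewise called 0 of the 5, against 7.78% of the genes to which it gave an adjusted p. At an unadjusted p under 0.05 in edgeR stood 1 of the 5, NEK7, against 30.6% of all tested genes. The median log2 fold change was −0.32 over the 5 genes and 0.01 over all tested genes, with 2 positive and 3 negative values.

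CASP1 had few counts, 27, 13 and 45 in the fresh libraries and 48, 39 and 10 in the preconditioned libraries, or 0.78, 0.37 and 1.23 CPM against 1.46, 1.25 and 0.33 CPM. The groups overlapped, and preconditioned replicate 3 was below every fresh library. The log2 fold change of CASP1 was 0.35 (SE 0.67, 95% interval −1.21 to 1.92, adjusted p = 0.75), an interval that runs from 0.432 to 3.77 times the fresh level. No difference was detectable with these libraries, between which the coefficient of variation was 54.6% in the fresh and 59.4% in the preconditioned group. Without preconditioned replicate 1 the value was −0.02.

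CASP1 lies in a cluster of inflammatory caspase genes. In the rabbit assembly mOryCun1.1 it stands between a gene described as caspase-13 (LOC100359184) and a second gene described as caspase-1 (LOC100358658), with one described as caspase-12 (LOC103350677) beyond. How reads shared between such related genes were counted is not stated, so values of this cluster are uncertain to that extent. LOC100358658 had at most 2 counts in any library and LOC103350677 at most 8. LOC100359184 had the most counts in the cluster, with 455, 1033 and 791 counts in the fresh libraries and 807, 695 and 43 in the preconditioned libraries. Preconditioned replicates 1 and 2 of this caspase-13 gene lay within the fresh range, whereas replicate 3 was 4.05 lower on the log2 scale than the mean of these preconditioned libraries. Its log2 fold change was −0.41 (SE 0.85, adjusted p = 0.78), and it was 0.14 without preconditioned replicate 3.

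The adaptor ASC was represented by a gene without a symbol, LOC100352110, whose deposited description is that of ASC. It is not counted with the 5 genes because it was matched by its description, after values had been seen. Its counts were 66, 55 and 73 in the fresh libraries and 36, 44 and 12 in the preconditioned libraries, or 1.55 to 2.0 CPM against 0.395 to 1.41 CPM. The groups did not overlap, which held for 18.8% of all tested genes in this direction. The ASC gene had a log2 fold change of −0.91 (SE 0.49, 95% interval −2.06 to 0.24) and did not pass the test (adjusted p = 0.25).

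**Figure D2:**
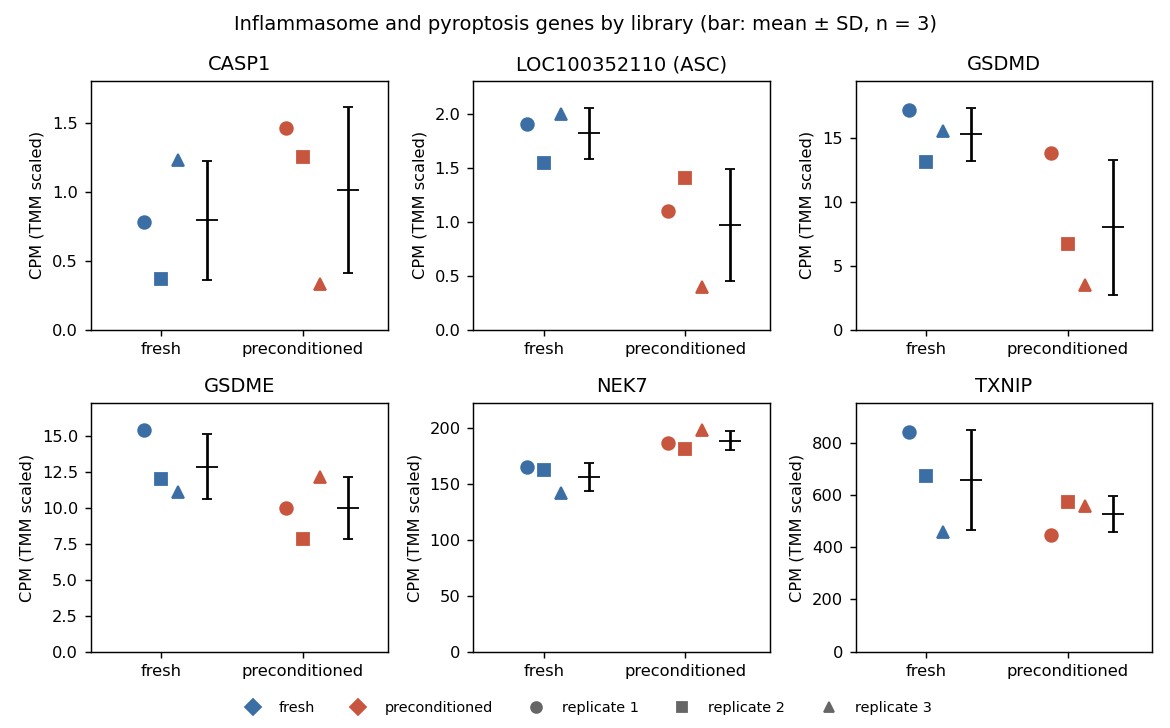
CPM after TMM scaling of CASP1, the ASC gene, GSDMD, GSDME, NEK7 and TXNIP; each point is 1 library, its shape gives the replicate number, and bars give the mean and SD of 3 libraries. Preconditioned replicate 3 is the lowest point for CASP1, ASC and GSDMD, and NEK7 lies at 142 to 165 CPM in fresh and 181 to 198 CPM in preconditioned libraries.

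GSDMD, the pore-forming substrate of caspase-1, had the largest difference of the 5 genes. It was at 17.2, 13.1 and 15.6 CPM in fresh and at 13.8, 6.71 and 3.52 CPM in preconditioned libraries, with means of 15.3 ± 2.09 and 8.0 ± 5.23 CPM. Preconditioned replicate 1 lay within the fresh range, and replicates 2 and 3 lay below it. The log2 fold change of GSDMD was −0.94 (SE 0.45, 95% interval −2.01 to 0.14), which did not pass the test (adjusted p = 0.21). This outcome rested on preconditioned replicate 1: without it the value was −1.59 with an adjusted p of 0.016, and GSDMD was called lower. The fit without that library called 1546 genes in all, against 344 with it. Without preconditioned replicate 3 the log2 fold change was −0.58 (adjusted p = 0.32). Between libraries, the coefficient of variation of GSDMD was 13.6% in fresh and 65.5% in preconditioned libraries. The median over all tested genes was 13.8% and 19.9%.

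GSDME, another pore-forming gasdermin, was at 15.4, 12 and 11.1 CPM in fresh and at 9.98, 7.83 and 12.1 CPM in preconditioned libraries. Preconditioned replicate 3 was above fresh replicate 3, so that the groups overlapped. The log2 fold change of GSDME was −0.37 (SE 0.23, 95% interval −0.90 to 0.17, adjusted p = 0.31). In FPKM, which the authors scaled by library size alone, GSDMD and GSDME did not overlap between the groups and were lower in the preconditioned group, as were 28.3% of all tested genes. Of the other gasdermin genes, GSDMA was tested, at 1.09 to 1.32 CPM in fresh and 0.943 to 2.17 CPM in preconditioned libraries (log2 fold change 0.16, adjusted p = 0.82). The sign of the GSDMA value turned with library size scaling, with both FPKM fits and without preconditioned replicate 3. GSDMC had at most 1 count in any library. PJVK, the gasdermin family gene pejvakin, had 5 to 17 counts (log2 fold change 0.52, adjusted p = 0.60).

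The ratio of GSDMD to GSDME in FPKM was set out per library after the values had been seen. It was 1.82, 1.77 and 2.29 in the fresh libraries and 2.24, 1.39 and 0.475 in the preconditioned libraries. GSDME thus exceeded GSDMD in preconditioned replicate 3 and in no other library. The difference of the mean log2 ratio was −0.77 (exact two-sided permutation test, p = 0.3, where 3 against 3 libraries cannot go below 0.1; adjusted over 4 ratios, 0.4).

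NEK7 had the smallest coefficient of variation of the 5 genes in both groups (7.86% and 4.73%). It was at 165, 162 and 142 CPM in fresh and at 186, 181 and 198 CPM in preconditioned libraries, with means of 157 ± 12.3 and 188 ± 8.91 CPM. All 3 preconditioned libraries were above all 3 fresh libraries, which held for 17.9% of all tested genes in this direction. The log2 fold change of NEK7 was 0.27 (SE 0.11, 95% interval 0.02 to 0.52, unadjusted p = 0.04) and did not pass the test (edgeR adjusted p = 0.15). The separation depended on scaling: in FPKM, NEK7 was at 33.0 to 37.8 in fresh and 35.8 to 40.9 in preconditioned libraries and the groups overlapped, and 10.5% of all tested genes were separated in this direction in that unit. In the NEK family of kinases, 10 of 11 genes were tested and 0 were called by edgeR, with 4 (40.0%, against 30.6% of all tested genes) at an unadjusted p under 0.05 and 1 (10%, against 7.78%) called by DESeq2.

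TXNIP was at 840, 673 and 459 CPM in fresh and at 448, 572 and 559 CPM in preconditioned libraries. The spread was wider in the fresh group, where the coefficient of variation was 29.0% against 12.9%, and of the preconditioned libraries replicate 1 lay below the fresh range and replicates 2 and 3 within it. The log2 fold change of TXNIP was −0.32 (SE 0.23, 95% interval −0.85 to 0.21, adjusted p = 0.37). For TXN, the thioredoxin that TXNIP binds, the log2 fold change was 0.23 (adjusted p = 0.48). In FPKM, TXN exceeded TXNIP 5.91 to 10.6 times in fresh and 9.29 to 12.2 times in preconditioned libraries (exact two-sided permutation test, p = 0.3, adjusted 0.4).

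**Figure D3:**
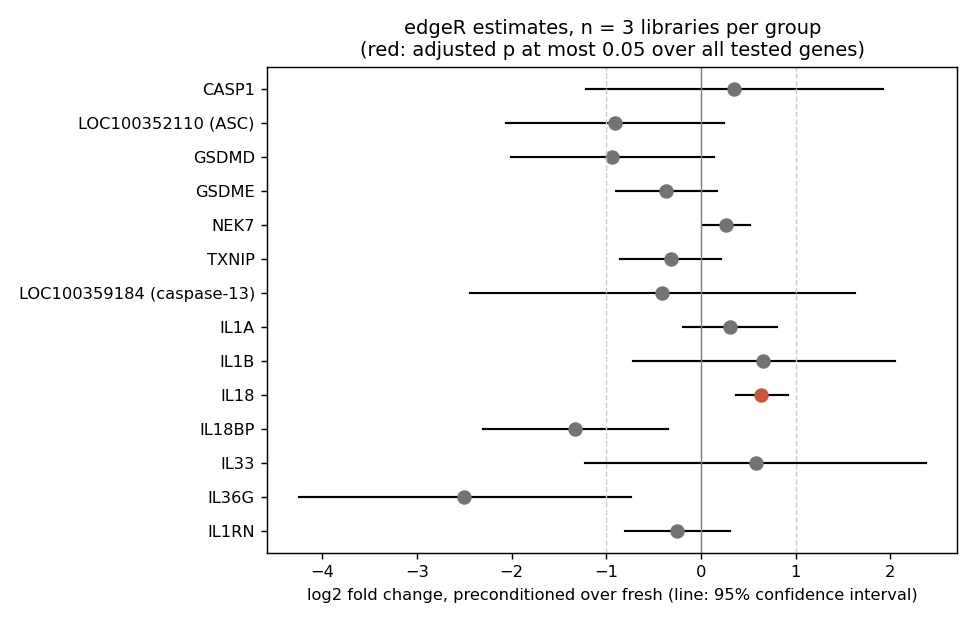
Log2 fold change of the preconditioned over the fresh group with its 95% interval from edgeR's quasi-likelihood test for the 5 genes, the ASC and caspase-13 genes and cytokine genes of the pathway, with an adjusted p of at most 0.05 in red (IL18) and dashed lines at the fold change cutoff. Of the 5 genes, NEK7 has the narrowest interval, 0.02 to 0.52, and CASP1 the widest, −1.21 to 1.92.

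Set against the fresh mean, the preconditioned libraries differed among themselves more in some of these genes than in others. In replicates 1, 2 and 3 the log2 difference in CPM was −0.15, −1.19 and −2.12 for GSDMD. For CASP1 it was 0.88, 0.65 and −1.27, and for the ASC gene −0.73, −0.37 and −2.2. For the caspase-13 gene it was 0.21, 0.06 and −3.91. These 4 genes were lowest in replicate 3. NEK7, at 0.25, 0.21 and 0.34, GSDME, at −0.36, −0.71 and −0.09, and TXNIP, at −0.55, −0.2 and −0.23, were not. Of the 5 genes 2 (40.0%) were lowest in that library among all 6, against 21.8% of all tested genes. Replicate 3 had the lowest total count, 31952352, and a leukocyte and macrophage marker sum of 307 CPM against 130 and 376 CPM in replicates 1 and 2. CD68 gave most of each sum, 121, 300 and 288 CPM in replicates 1, 2 and 3. PTPRC had 9, 47 and 9 counts there, so that replicate 3 was not raised in that marker. The part of these in the low values was not tested.

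**Figure D4:**
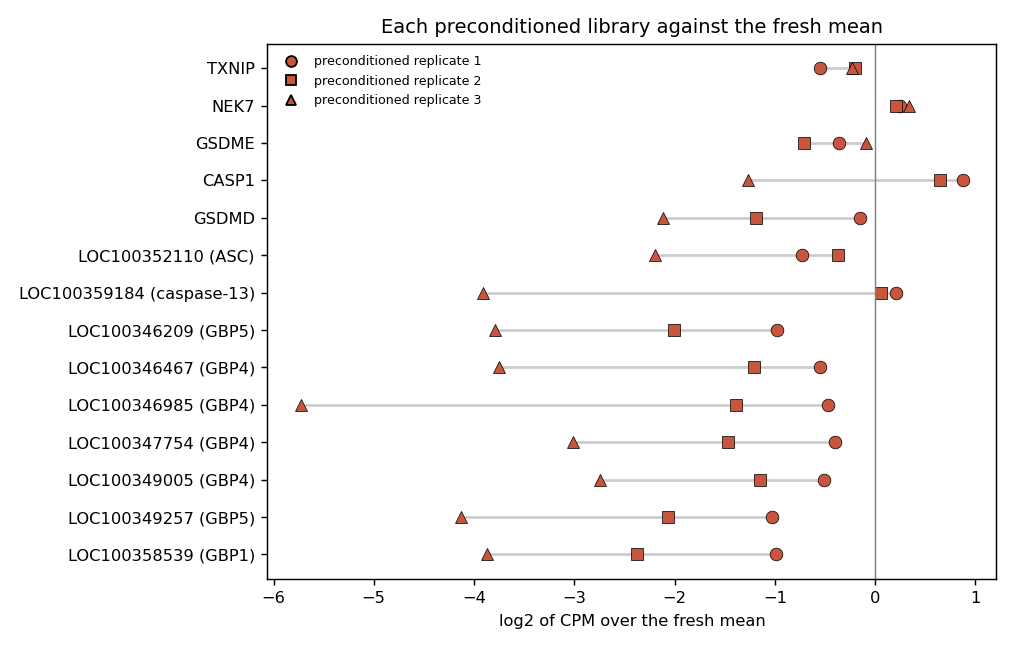
Log2 of the CPM in each preconditioned library over the mean of the fresh libraries, for the 5 inflammasome and pyroptosis genes, the ASC and caspase-13 genes and the 7 tested genes described as guanylate-binding proteins (GBP); shapes give the replicate number. Replicate 3 is at −3.91 for the caspase-13 gene and −2.12 for GSDMD, and the replicates of NEK7 lie together at 0.21 to 0.34.

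Around these genes, 89 others of the pathway were listed by role, of which 71 had a row and 63 were tested. Of the 63, edgeR called 0 higher and 2 lower, NFKB1 and SERPINB8, and 28 (44.4%) had an unadjusted p under 0.05, against 1.2% called lower and 30.6% under that p among all tested genes. Another 4 genes (CASP2, IL18, CHMP3 and VPS4B) had an adjusted p of at most 0.05 with a fold change under the cutoff. DESeq2 called 10 (15.9%), 1 higher and 9 lower, against 7.78% of all genes with an adjusted p from it. Without preconditioned replicate 1 edgeR called 11 of the 64 listed genes tested in that fit, all lower. These were CASP2, CASP14, CGAS, IL36G, IRF1, NFKB1, NLRC5, SERPINB8, STING1, TLR2 and TRIM59. Among all 15473 genes tested in that fit, 1546 were called, 930 of them lower. The median log2 fold change of the 63 genes was −0.20, and 30 of them (47.6%) were lowest in preconditioned replicate 3, against 21.8% of all tested genes. A separate count by the deposited GO annotation found 22 genes with a term on inflammasomes or pyroptosis, of which 16 were tested and edgeR called 0. Of the 16, 5 (31.2%, against 30.6% of all tested genes) had an unadjusted p under 0.05 and 2 (12.5%, against 7.78%) were called by DESeq2.

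Among other sensors, 5 of 11 genes with a row passed the filter and none was called by edgeR, with 1 (20.0%) at an unadjusted p under 0.05 and called by DESeq2, against 30.6% and 7.78% of all genes tested by each. That gene was NLRC5, which drives MHC class I genes, at 1.25, 7.0 and 3.64 CPM in fresh and 1.8, 0.224 and 0.198 CPM in preconditioned libraries. The groups of NLRC5 overlapped (log2 fold change −2.41, SE 1.0, edgeR adjusted p = 0.16, DESeq2 adjusted p = 0.031). Without preconditioned replicate 1 the value of NLRC5 was −4.22 (edgeR adjusted p = 0.0204, called lower), and on log2(FPKM + 1) it was −0.48 (limma adjusted p = 0.131). NLRP12, an NLR protein described as a brake on NF-κB, had the highest CPM of the NLRP genes with a row, at 31.6 ± 2.02 CPM in fresh and 24.7 ± 7.36 CPM in preconditioned libraries (log2 fold change −0.36, adjusted p = 0.29). MEFV, which encodes the sensor pyrin, had 6, 21 and 9 counts in the fresh libraries and 0, 2 and 3 in the preconditioned libraries and was not tested.

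Priming is the step in which NF-κB signalling raises the transcription of inflammasome genes. NFKB1, which encodes the p105 precursor of NF-κB p50, fell from 83.3, 98.9 and 89.8 CPM in the fresh group to 60.6, 34.6 and 34 CPM in the preconditioned group. Its log2 fold change was −1.07 (SE 0.24), at the edge of the cutoff with an adjusted p of 0.0498. The NFKB1 call was lost in 6 of 13 alternatives, with adjusted p values of 0.114 to 0.165 without any 1 library other than preconditioned replicate 1 and 0.0987 with a replicate block. The other 9 genes of the priming list, toll-like receptors and their signalling proteins among them, were not called. Of the 10, 2 (20.0%) had an unadjusted p under 0.05, against 30.6% of all tested genes, and DESeq2 called 1 (10%, against 7.78%).

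Among regulators and triggers, 15 of 16 genes with a row were tested and edgeR called 0, with 7 (46.7%, against 30.6% of all tested genes) at an unadjusted p under 0.05 and 2 (13.3%, against 7.78%) called by DESeq2. These 2 were IRF1 and CGAS, the sensor of cytosolic DNA. For IRF1, an interferon-response factor that drives guanylate-binding protein genes, the groups did not overlap and the log2 fold change was −1.09 (edgeR adjusted p = 0.105, DESeq2 adjusted p = 0.022). For CGAS it was −1.37 (edgeR adjusted p = 0.083, DESeq2 adjusted p = 0.011). Guanylate-binding proteins promote caspase-4 and inflammasome activation on microbes, and 9 genes without a symbol carried that description. An untested one, described as guanylate-binding protein 4-like (LOC108177586), had 0 counts in the fresh libraries and 52, 13 and 0 in the preconditioned libraries. Another, described as guanylate-binding protein 7 (LOC100346726), had 3, 4 and 3 against 0 counts in each preconditioned library. The 7 tested had log2 fold changes of −1.97 to −1.21, and none passed edgeR's test (lowest adjusted p 0.12). Of the 7, 3 (42.9%, against 30.6% of all tested genes) had an unadjusted p under 0.05 and 1 (14.3%, against 7.78%) was called by DESeq2. All 7 were lowest in preconditioned replicate 3, as were 21.8% of all tested genes. The one with the highest CPM, described as guanylate-binding protein 1 (LOC100358539), was at 560, 1439 and 695 CPM in fresh and 453, 173 and 61.3 CPM in preconditioned libraries. Without preconditioned replicate 1 its log2 fold change was −2.95 (adjusted p = 0.042, called lower). These genes are close relatives, and reads shared among them may have been split or lost in counting.

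Of the other caspases and executors of cell death, 15 of 16 genes with a row were tested and none was called by edgeR, with 8 (53.3%, against 30.6% of all tested genes) at an unadjusted p under 0.05 and 2 (13.3%, against 7.78%) called by DESeq2. CASP2, a caspase of stress-induced apoptosis, was at 45.0, 43.8 and 38.0 CPM in fresh and 26.6, 18.0 and 19.0 CPM in preconditioned libraries. Its log2 fold change was −1.0 (SE 0.18, adjusted p = 0.039), just under the cutoff in size. The adjusted p of CASP2 was 0.0858 to 0.145 without any 1 library other than preconditioned replicate 1 and 0.0783 with a replicate block. In 5 of 13 alternatives CASP2 passed both cutoffs: library size alone, no filter on low counts, both limma fits and without preconditioned replicate 1. DESeq2 gave it an adjusted p of 0.000197 with the size still just under the cutoff. CASP6 and CASP9, apoptotic caspases, had log2 fold changes of −0.51 and −0.62 with adjusted p values of 0.07 and 0.087. For CASP8, the initiator caspase of death receptors, the log2 fold change was 0.09 (adjusted p = 0.64). For NINJ1, needed for the rupture of the membrane in lytic death, it was −0.20 (adjusted p = 0.63). DESeq2 called NINJ2, a relative of NINJ1, higher and CASP14, a caspase of keratinocyte differentiation, lower. NINJ2 had 5 to 12 counts in fresh and 17 to 28 in preconditioned libraries (log2 fold change 1.81, SE 0.52, edgeR adjusted p = 0.076, DESeq2 adjusted p = 0.041). CASP14 had 38 to 60 and 3 to 17 counts (log2 fold change −1.93, SE 0.59, edgeR adjusted p = 0.085, DESeq2 adjusted p = 0.02). The groups did not overlap in either gene. On log2(FPKM + 1) limma gave log2 fold changes of 0.31 for NINJ2 and −0.42 for CASP14. CASP14 passed both cutoffs in 3 of 13 alternatives: DESeq2, limma on log2(FPKM + 0.1) and without preconditioned replicate 1. A second gene described as caspase-14 (LOC100343179) had 5, 8 and 19 counts in fresh and 27, 9 and 9 in preconditioned libraries. It failed edgeR's filter, and DESeq2 gave a log2 fold change of 0.66 (adjusted p = 0.628).

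The cytokines that inflammasomes release or that signal with them were tested as cargo, 9 of 9 genes with a row. Of these edgeR called 0, 3 (33.3%, against 30.6% of all tested genes) had an unadjusted p under 0.05, and DESeq2 called 2 (22.2%, against 7.78%). IL18 was at 123, 110 and 131 CPM in fresh and 174, 188 and 208 CPM in preconditioned libraries. The groups of IL18 did not overlap, and the log2 fold change was 0.64 (SE 0.12, 95% interval 0.37 to 0.92, adjusted p = 0.039), under the fold change cutoff. Over 13 alternatives the log2 fold change of IL18 was 0.47 to 0.70 with adjusted p values of 0.000737 to 0.146, above 0.05 in 9 of them: with library size alone, with a replicate block, with both FPKM fits, and without any 1 library other than preconditioned replicate 1. IL18BP, the secreted inhibitor of IL-18, was at 27.3, 57.5 and 30.9 CPM against 19.0, 18.9 and 8.17 CPM, without overlap. Its log2 fold change of −1.33 did not pass edgeR's test (adjusted p = 0.09) and was called lower by DESeq2 (adjusted p = 0.00909). The ratio of IL18 to IL18BP in FPKM was 1.47 to 3.47 in fresh and 7.02 to 19.6 in preconditioned libraries (exact two-sided permutation test, p = 0.1, the smallest possible, adjusted 0.4), a ratio chosen after the values had been seen.

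IL1A, whose product is active without caspase-1, was at 792 ± 186 CPM in fresh and 978 ± 187 CPM in preconditioned libraries (log2 fold change 0.31, adjusted p = 0.36). IL1B, the classic caspase-1 substrate and the cytokine added to the storage medium, was at 4.84, 5.29 and 4.54 CPM in fresh and 2.53, 15.1 and 5.63 CPM in preconditioned libraries. IL1B was highest in preconditioned replicate 2, which also had the most PTPRC counts, 47, and the part of leukocytes in this value was not tested. In FPKM, IL1A exceeded IL1B 65.7 to 378 times in the 6 libraries. The log2 fold change of IL1B was 0.66 (adjusted p = 0.47), and it was −0.26 without that library. IL36G, an epithelial cytokine of the IL-1 family, was at 44.8, 58.8 and 80.3 CPM against 23.1, 6.81 and 2.6 CPM. IL36G had a log2 fold change of −2.50 (SE 0.74), did not pass edgeR's test (adjusted p = 0.083) and was called lower by DESeq2 (adjusted p = 0.027). It was also called by both limma fits on FPKM (adjusted p = 0.0474 and 0.0476) and without preconditioned replicate 1, where it was −3.71 (adjusted p = 0.011). A gene described as interleukin 36 alpha (LOC100355520) was at 5.1, 8.97 and 7.49 CPM against 2.37, 0.608 and 0.494 CPM, without overlap. Its log2 fold change was −2.62 (SE 0.63, edgeR adjusted p = 0.055), and DESeq2 called it lower (adjusted p = 0.000173). LOC100355520 was called lower as well with library size alone, without a filter on low counts, with both limma fits and without preconditioned replicate 1 (−3.71, adjusted p = 0.00398), and was not called with any other library left out (adjusted p = 0.116 to 0.178). The other cargo genes did not pass either test, with log2 fold changes of 0.58 for the alarmin IL33, −0.39 for the alarmin HMGB1, −0.25 for the receptor antagonist IL1RN and 0.82 for the decoy receptor IL1R2.

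**Figure D5:**
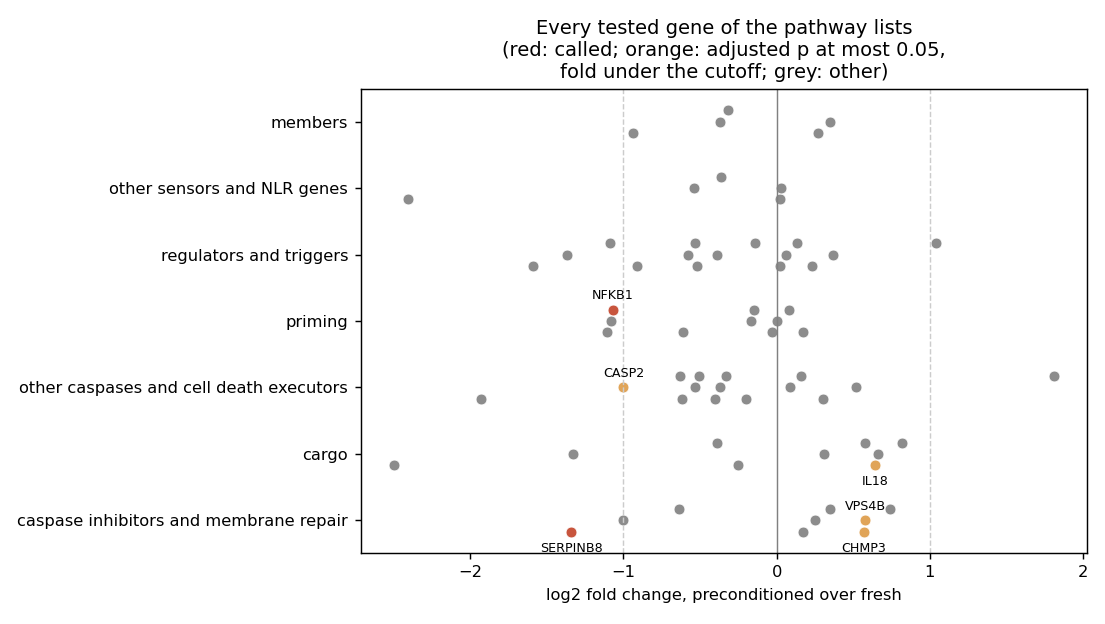
Log2 fold change, preconditioned over fresh, of each tested gene of the pathway lists by role, with called genes in red and those at an adjusted p of at most 0.05 but a fold change under the cutoff in orange. NFKB1 (−1.07) and SERPINB8 (−1.34) are the called genes, and IL18, CHMP3 and VPS4B lie to the right at 0.57 to 0.64.

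Among caspase inhibitors and genes of membrane repair, all 9 were tested, and 7 (77.8%) had an unadjusted p under 0.05, against 30.6% of all tested genes. DESeq2 called 2 of them (22.2%, against 7.78%), SERPINB8 and SERPINB9. SERPINB8, a serine protease inhibitor of the serpin family, fell from 5.73 ± 0.665 to 2.26 ± 0.629 CPM (log2 fold change −1.34, SE 0.29, adjusted p = 0.048). The SERPINB8 call was likewise lost in 6 of 13 alternatives, with adjusted p values of 0.102 to 0.166 without any 1 library other than preconditioned replicate 1 and 0.109 with the block. SERPINB9, the granzyme B inhibitor, was at 3.28, 4.92 and 5.09 CPM against 2.56, 1.63 and 2.44 CPM, without overlap (log2 fold change −1.0, edgeR adjusted p = 0.091, DESeq2 adjusted p = 0.021). CHMP3 and VPS4B belong to the ESCRT machinery, which sheds gasdermin pores from the membrane. CHMP3 was at 99.7 ± 4.04 and 148 ± 8.17 CPM in the fresh and preconditioned groups (log2 fold change 0.57, SE 0.10, adjusted p = 0.037). VPS4B was at 149 ± 16.2 and 223 ± 8.57 CPM (log2 fold change 0.58, SE 0.11, adjusted p = 0.042). In both genes every preconditioned library was above every fresh library, and the fold change stayed under the cutoff. The adjusted p was 0.000353 to 0.145 for CHMP3 and 0.00194 to 0.156 for VPS4B over 13 alternatives, and above 0.05 for both in 9 of them: with library size alone, with a replicate block, with both FPKM fits, and without any 1 library other than preconditioned replicate 1.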

How the data were processed

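Gene expression was measured by RNA-seq of polyadenylated RNA in 6 libraries of rabbit primary LSCs, grouped by the sample records. The authors aligned reads with hisat2 and deposited raw htseq-count counts for each gene. Their deposited FPKM values proved to be the counts over the library total and over 1 length per gene. The genome build, the annotation and the strand setting are not given in the sources used here, so no coordinates are printed, and overlapping or antisense genes cannot be told apart. RefSeq gene identifiers of mOryCun1.1 were matched for 19462 of 22177 identifiers and used for gene order only.

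Counts were tested in R 4.3.3 with edgeR 4.0.16 (filterByExpr, TMM, robust quasi-likelihood fit, condition as the only factor) and adjusted by Benjamini-Hochberg over all tested genes. A call needed an adjusted p no higher than 0.05 and a log2 fold change of 1 or more in size. Ratios of FPKM were compared by an exact permutation test over libraries. Alternatives were DESeq2 1.42.0, DESeq2's size factors, library size alone, the replicate number as a block, no filter on low counts, limma 3.58.1 on log2(FPKM + 1) and log2(FPKM + 0.1), each library left out, and no fold change cutoff. Precision is limited by the spread between libraries, to which counting adds for scarce transcripts such as CASP1, and groups of 3 libraries give wide intervals.

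The genes and lists were chosen with earlier results of these data known. Values are given for the gene set itself, for cytokines, gasdermins and caspases, and for any listed gene that was called, except 1 gene that is not reported here. Other genes named with values (the ASC and guanylate-binding protein genes, NLRP12, MEFV, NLRC5, TXN, IRF1, CGAS, SERPINB9, CD68, NINJ1, NINJ2, CHMP3, VPS4B, COL1A1, KRT3 and EPCAM) were chosen after their values were seen.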

Additional observations from a re-analysis of the deposited data

How the results depend on the processing

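Of all tested genes, 344 were called (163 higher, 181 lower). The count was 1190 with DESeq2, 565 with library size alone (142 higher, 423 lower; median log2 fold change of all genes −0.16 against 0.01), 590 with limma on log2(FPKM + 0.1), 763 without the fold change cutoff, and 14 to 1546 with 1 library left out, the highest without preconditioned replicate 1. With the replicate block it was 30. The deviations of same-numbered libraries from their group means correlated at −0.0734, −0.0799 and −0.123. No preconditioned library correlated best with the fresh library of its own number. With 3 libraries per group these values cannot exclude that the libraries were paired. Of the 5 inflammasome and pyroptosis genes 0 were called under each alternative, the block included, except with 1 library left out, where 0 to 1 were (GSDMD, without preconditioned replicate 1). The other pathway genes called numbered 2, and 10 with DESeq2, 0 with the replicate block, 4 and 5 with limma on log2(FPKM + 1) and log2(FPKM + 0.1), 6 without the fold change cutoff, and 0 to 11 with 1 library left out. Over the 13 alternatives the log2 fold change was −0.02 to 0.82 for CASP1 (−0.02 to 0.82 with 1 library left out), −1.59 to −0.58 for GSDMD (likewise with 1 library left out), −0.53 to −0.22 for GSDME, 0.10 to 0.30 for NEK7 and −0.53 to −0.11 for TXNIP. Signs turned for CASP1 (−0.02, without preconditioned replicate 1), IL1B (−0.26, without preconditioned replicate 2), LOC100359184 (0.14, without preconditioned replicate 3) and GSDMA (−0.0 with library size alone, −0.02 and −0.08 with limma on log2(FPKM + 1) and log2(FPKM + 0.1), −0.31 without preconditioned replicate 3). With 1 library left out these ranged from −0.26 to 1.07 for IL1B, −0.86 to 0.14 for LOC100359184 and −0.31 to 0.37 for GSDMA. The adjusted p values of CASP2, IL18, CHMP3 and VPS4B were 0.0783, 0.0949, 0.105 and 0.111 with the replicate block, and those of NFKB1 and SERPINB8 0.0987 and 0.109. The causes were not tested.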
